A study of Danio rerio with 6 samples.

Results

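The heat shock and cytosolic chaperone genes of zebrafish (Danio rerio) were followed in whole embryos exposed to dissolved nucleotides. The genes were chosen by symbol from the deposited count table: heat shock protein genes, J-domain (dnaj), bag, heat shock factor (hsf) and CCT chaperonin genes, tcp1, serpinh1, chordc1, ahsa1 and stip1. The folding genes hspa5, hsp90b1, dnajb9, dnajb11 and dnajc3 of the endoplasmic reticulum were left out. This gave 87 genes of 14612. Several of them act outside the cytosol, such as hspa9, hspd1 and hspe1 in mitochondria and serpinh1 in the endoplasmic reticulum. RNA was sequenced from pools of 33 to 35 embryos at 7 days post fertilization, 3 pools in plain embryo medium (control) and 3 in embryo medium with nucleotides at 10 µM, and the pools of each arm are numbered 1 to 3. The labels name neither the nucleotides nor the strain, and they give no duration of exposure. The headers of the exposed columns name carbon monoxide, while their library names are those of the pools labelled as nucleotide exposed. Groups are called here as the labels call them.

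Heat shock proteins are chaperones that hold unfolded proteins and help them fold. Hsp70 proteins bind short exposed stretches of a client in a cycle driven by ATP. J-domain proteins bring clients and start the cycle, nucleotide exchange factors such as several Bag proteins and Hsp110 release the client, and Hop (stip1) hands clients on to Hsp90. The CCT chaperonin is a double ring that folds actin and tubulin. Under heat or other protein damage, heat shock factor 1 binds the promoters of the inducible members and raises their transcription, while cognate members such as hspa8 are made at all times.

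Control pools 1 to 3 held 22085223, 18690465 and 23066970 counts, and nucleotide pools 1 to 3 held 28703789, 25792829 and 31556366. Every nucleotide pool was thus deeper than every control pool. The trimmed-mean scaling factors did not overlap either, at 1.033 to 1.063 in control and 0.9128 to 0.9985 in nucleotide pools. The part of this depth difference in the results below was not tested. Same-numbered pools of the arms deviated together from their group means (correlations of 0.573, 0.659 and 0.651 across genes), so tests that take the number as a block follow those that do not. Levels are normalised CPM, a count scaled to a common library size. Tests are 2-sided edgeR quasi-likelihood tests over 13336 genes, and a gene is said to rise or fall where its adjusted p was under 0.05. The table sums all reads of a pool, so more RNA per cell and more cells of a type cannot be told apart. Markers of skeletal muscle (37 matched genes) took 5.11% to 6.09% of counts in control pools and 5.8% to 8.71% in nucleotide pools, with nucleotide pool 3 the highest. Of the 37, 3 rose and 0 fell without the block, where 125 of all 13336 genes rose (0.937%) and 7 fell (0.0525%). With the block 23 rose and 0 fell, 62.2% against 10.7% of all genes rising. Neuronal markers (18 genes) held 0.320% to 0.338% in control and 0.336% to 0.355% in nucleotide pools, and 1 of 17 tested rose without the block, while 7 rose and 1 fell with it (41.2% and 5.88%). Lens markers (13 genes) held 0.997% to 1.48% and 0.888% to 1.37%, and none of the 13 passed without the block, while 3 rose and 2 fell with it (23.1% and 15.4%, against 10.7% and 8.38% of all genes). None of the muscle and lens markers was at 0 in every library, and 1 neuronal marker was. The part of these shares in the results below was not tested.

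The 87 genes together took 1.19%, 1.29% and 1.11% of all counts in control pools 1 to 3, and 1.47%, 1.73% and 1.52% in the nucleotide pools. The arms did not overlap. hspa8, the cognate Hsp70 gene, took 0.113%, 0.155% and 0.120% of all counts in control and 0.351%, 0.492% and 0.422% in nucleotide pools. hsp90ab1, the constitutive Hsp90 beta gene, took 0.396%, 0.436% and 0.359% against 0.493%, 0.561% and 0.494%. The other 85 genes together held 0.676%, 0.702% and 0.632% in control and 0.626%, 0.673% and 0.608% in nucleotide pools. Their arms overlapped, and the nucleotide pool was lower within each same-numbered pair. These are shares of the library totals, with no other scaling and no correction for gene length. On library totals the median log2 fold change of all tested genes was -0.14, so lower shares are not particular to the 85 genes. The part of that general shift in their shares was not tested.

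**Figure D1:**
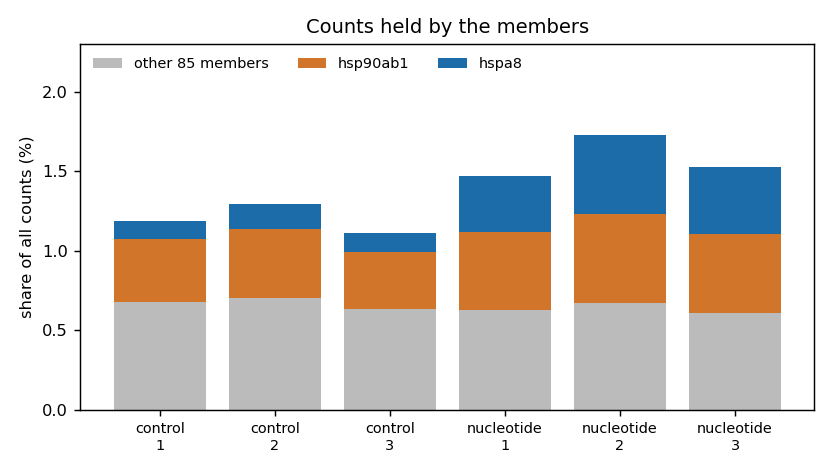
Share of all counts (%, y axis) held by hspa8, by hsp90ab1 and by the other 85 genes, stacked, in each of the 6 libraries (x axis). The stack is taller in the nucleotide pools through hspa8 and hsp90ab1, while the grey part lies between 0.608% and 0.702% in all libraries.

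Of the 87 genes, 84 passed the filter on low counts. hspa8 rose, which is 1.19% of the 84 against 0.937% of all tested genes, and 0 fell, against 0.0525%. At an unadjusted p under 0.05, 11 were higher (13.1% against 8.3% of all genes) and 2 were lower (2.38% against 6.19%). DESeq2 called 3 higher (3.57% against 3.05%) and 0 lower (against 0.75%), and the authors' deposited table has the same counts among the 80 with an adjusted p (3.75% against 3.3% higher and 0.824% lower of all its genes). With the replicate block 13 rose (15.5% against 10.7%) and 2 fell (2.38% against 8.38%). That split rests on the scaling. With the block and library totals in place of trimmed means, 5 rose (5.95% against 5.14% of all genes) and 12 fell (14.3% against 21.7%). The 5 were hspa8, hsp70, hsp70l, hsp90ab1 and cct7, which rose with the block under both scalings. The 12 were cct2, dnajb1a, hsf1, dnajb6a, cct4, hspa12b, tcp1, hspe1, hspbap1, hspb2, hspb9 and cct6a, of which dnajb1a and hspb2 fell with the block under both. Without the block, library totals moved the median log2 fold change of all genes from -0.01 to -0.14. The median log2 fold change over the 84 genes was 0.06, against -0.01 over all tested genes, and 79 of the 84 lay within 0.5 of 0 (94.0%, as for 94.2% of all genes). Within all 3 same-numbered pairs 27 genes were higher (32.1% against 25.7% of all genes) and 13 were lower (15.5% against 27.4%). The 3 genes under the filter were dnajc17 with 0 counts in all libraries, dnaja3b with 7 counts in control pool 2 and 18 in nucleotide pool 2 and 0 elsewhere, and the heat shock factor gene hsf5, which had 4, 0 and 2 counts in control pools against 12, 20 and 0.

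hspa8 (NCBI gene 573376) encodes the cognate Hsp70 (Hsc70), which also strips clathrin from coated vesicles. Its level was 1067, 1503 and 1156 CPM in control pools 1 to 3 and 3519, 5103 and 4625 CPM in nucleotide pools 1 to 3. The lowest nucleotide pool lay above the highest control pool, and pool 2 was the highest of each arm. The means were 1242 ± 230.1 and 4415 ± 812.8 CPM (SD, n = 3 each), 3.56-fold apart, with a log2 fold change of 1.83 ± 0.191 (SE, edgeR adjusted p = 0.00409). The log2 ratio within pairs 1, 2 and 3 was 1.72, 1.76 and 2.0. hspa8 kept its call with each library left out in turn, with log2 fold changes from 1.71 to 1.99 and adjusted p up to 0.0456 (without control pool 1). By the size of its rise it stood at place 33 of the 13336 tested genes.

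hsp70 (30671) and hsp70l (560210) are 2 further cytosolic Hsp70 genes. The promoter of hsp70l is widely used in zebrafish to switch on transgenes by heat. hsp70 was at 8.31, 13.1 and 6.52 CPM in control and 29.1, 37.0 and 19.7 CPM in nucleotide pools. Its arms did not overlap, and pool 2 was again the highest of each arm. The counts behind these levels were 195, 252 and 156 against 835, 920 and 567. The log2 fold change was 1.63 ± 0.300 (SE), which did not pass without the block (edgeR adjusted p = 0.0577) and passed with it (1.63 ± 0.0979, adjusted p = 4.92e-07) and in DESeq2 (adjusted p = 2.91e-06). Without the block it passed when control pool 2 or nucleotide pool 3 was left out (adjusted p = 0.0432 and 0.046), and the other libraries left out gave up to 0.271.

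hsp70l was at 13.8, 6.37 and 5.68 CPM in control and 23.7, 15.5 and 13.2 CPM in nucleotide pools. The arms overlapped, since control pool 1 lay above nucleotide pool 3. Pool 1 was the highest of both arms, and the nucleotide pool was higher within each pair, with log2 ratios of 0.78, 1.29 and 1.22. The log2 fold change was 1.02 ± 0.359 (SE) without the block (edgeR adjusted p = 0.25) and 1.07 ± 0.123 with it (adjusted p = 0.000162), and DESeq2 gave an adjusted p of 0.0661. Without the block its change ranged from 0.74 to 1.54 when single libraries were left out.

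**Figure D2:**
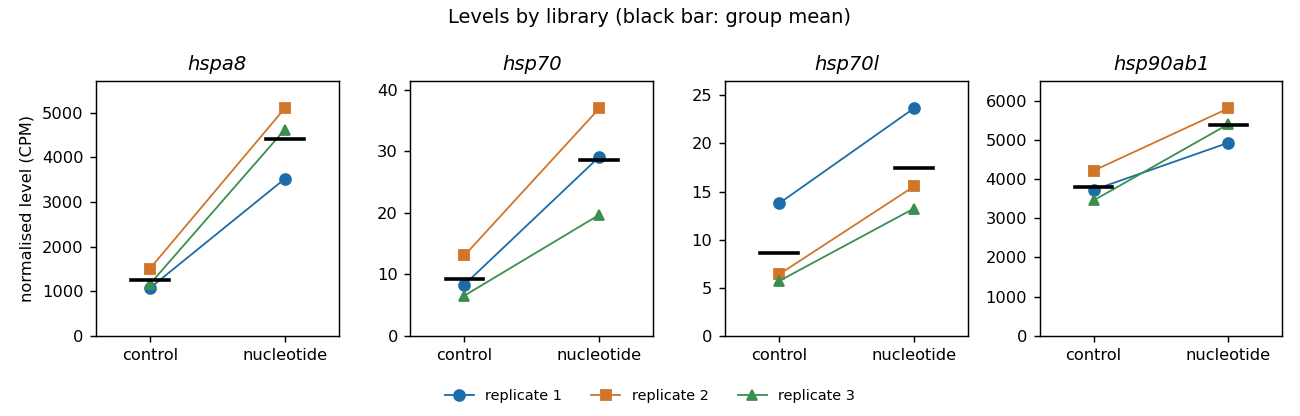
Normalised level (CPM, y axis from 0) of hspa8, hsp70, hsp70l and hsp90ab1 in control and nucleotide pools, with lines joining pools of the same number and black bars at the group means (3 pools each). Every line goes up, and the arms overlap for hsp70l alone.

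Members of the Hsp70 family share long stretches of sequence, and the sources used here do not say where a read fitting more than 1 gene went. The split of counts between members is therefore uncertain. RefSeq (GRCz12tu) now calls gene 30671 hsp70.3 and gives its old symbol also to another gene, hsp70.1. With the counts of hspa8, hsp70 and hsp70l added into 1 row, the level went from 1260.0 ± 230.6 to 4462 ± 810.2 CPM (SD, n = 3 each), a log2 fold change of 1.82 ± 0.189 (SE, edgeR adjusted p = 0.00397), which is close to that of hspa8 because hspa8 holds most of the sum. A further 3 Hsp70 rows lie outside the symbol rule and are named here after their values were seen. hsc70 was at 230.8, 269.7 and 252.7 CPM in control and 252.3, 333.3 and 368.1 CPM in nucleotide pools, overlapping arms with a log2 fold change of 0.34 ± 0.151 (SE, edgeR adjusted p = 0.355, and 0.0167 with the block). si:dkey-4p15.3, now called hspa8b in RefSeq, was at 5.50, 9.38 and 7.23 against 8.72, 21.1 and 11.6 CPM (0.91 ± 0.338, edgeR adjusted p = 0.276, and 0.00131 with the block). si:ch211-199o1.2, now hspa1b, was at 3.66, 4.04 and 4.14 against 3.0, 5.92 and 4.90 CPM and passed in neither fit.

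The remaining 7 Hsp70 and Hsp110 genes lay between -0.28 and 0.30 in log2 fold change, and none passed without the block. hspa4b, an Hsp110 gene whose protein exchanges nucleotide on Hsp70, was at 93.8, 102.2 and 98.8 CPM in control and 112.6, 112.4 and 139.1 CPM in nucleotide pools. Its arms did not overlap, with nucleotide pool 3 standing above the other two, and it rose with the block (0.30 ± 0.0737 SE, edgeR adjusted p = 0.0162) but not with the block and library totals (0.0811). Its paralog hspa4a had a log2 fold change of 0.09. hspa9, the mitochondrial Hsp70, was at 301.9, 338.4 and 396.8 CPM in control and 334.7, 376.1 and 438.7 CPM in nucleotide pools (0.15 ± 0.145 SE, edgeR adjusted p = 0.694, and 0.132 with the block). The divergent family member hspa12b had the lowest value, at -0.28 ± 0.148 (edgeR adjusted p = 0.437, 0.0597 with the block, and 0.0162 with the block and library totals).

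hsp90ab1 (30573) was at 3728, 4222 and 3460 CPM in control and 4937, 5817 and 5413 CPM in nucleotide pools. The arms did not overlap, and the log2 ratio within pairs was 0.41, 0.46 and 0.65. The means differed 1.42-fold, with a log2 fold change of 0.50 ± 0.129 (SE). It did not pass without the block (edgeR adjusted p = 0.138) and passed with it (adjusted p = 0.00203), in DESeq2 (0.00346) and in the authors' deposited table (0.00322). The alpha genes hsp90aa1.1 and hsp90aa1.2 are neighbours in the RefSeq annotation. hsp90aa1.1, which in zebrafish is made in muscle and needed for myosin folding, was at 118.1, 99.9 and 88.4 CPM in control and 107.8, 128.7 and 100.9 CPM in nucleotide pools, overlapping arms (0.14 ± 0.138, edgeR adjusted p = 0.701). hsp90aa1.2 was at 204.9, 218.0 and 142.4 against 168.7, 262.6 and 134.1 CPM, with a log2 fold change of 0.00 ± 0.258 (edgeR adjusted p = 0.999).

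Among co-chaperones of Hsp90, none passed without the block. ahsa1l, a relative of the Hsp90 ATPase activator Aha1, was at 36.0, 39.2 and 33.2 CPM in control and 39.5, 45.9 and 43.5 CPM in nucleotide pools. The lowest nucleotide pool lay just above the highest control pool, and the gene rose with the block (0.25 ± 0.0744, edgeR adjusted p = 0.0354) but not with the block and library totals (0.212). The row ahsa1 was low, with means of 2.10 and 1.73 CPM, and lower within each pair. It passed in neither fit (-0.28 ± 0.499, edgeR adjusted p = 0.852, and 0.427 with the block). chordc1b was at 0.21 ± 0.0933 with no overlap of the arms (edgeR adjusted p = 0.355, and 0.0929 with the block), whereas its paralog chordc1a was at -0.01 ± 0.224. stip1 (Hop), the bridge between Hsp70 and Hsp90, was at 107.5, 99.0 and 98.3 against 103.6, 106.0 and 110.6 CPM (0.07 ± 0.0850, edgeR adjusted p = 0.764).

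None of the 3 tested heat shock factor genes passed without the block, with it or in DESeq2. With the block 10.7% of all genes rose and 8.38% fell, so 0 of 3 does not set them apart. hsf1, the main activator of the heat shock response, was at 56.0, 58.6 and 49.2 CPM in control and 52.3, 46.1 and 44.4 CPM in nucleotide pools, overlapping arms with a log2 fold change of -0.20 ± 0.107 (SE, edgeR adjusted p = 0.456, and 0.0739 with the block). With the block and library totals it fell (-0.32, adjusted p = 0.0115). hsf2 was at 30.6, 41.4 and 34.8 against 35.6, 38.8 and 44.6 CPM (0.16 ± 0.137, edgeR adjusted p = 0.658), and passed with the block only when pair 2 was left out (0.29, adjusted p = 0.0424). hsf4, which in mammals acts in the lens, was at 4.43, 3.84 and 4.47 against 3.25, 4.23 and 3.75 CPM (-0.19 ± 0.179, edgeR adjusted p = 0.691). These are messenger levels, and heat shock factors are activated as proteins.

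Of 36 J-domain genes 34 were tested, with log2 fold changes between -0.35 and 0.38 and a median of 0.08. None passed without the block, while 5 rose and 1 fell with it (14.7% and 2.94%, against 10.7% and 8.38% of all genes). dnajc8, whose human protein is found with splicing factors, was at 33.0, 29.9 and 31.6 CPM in control and 38.3, 44.3 and 38.9 CPM in nucleotide pools. Its arms did not overlap (0.36 ± 0.0975, edgeR adjusted p = 0.157, and 0.0115 with the block). dnajb14, whose mammalian protein sits in the membrane of the endoplasmic reticulum, was at 15.7, 17.1 and 14.4 against 18.0, 22.7 and 20.8 CPM, also without overlap (0.38 ± 0.126, edgeR adjusted p = 0.221, and 0.018 with the block). dnajc21, whose yeast counterpart acts in ribosome assembly, was at 11.8, 11.8 and 11.2 against 15.1, 12.7 and 17.2 CPM (0.37 ± 0.140, edgeR adjusted p = 0.276, and 0.0452 with the block).

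dnaja2, a main partner of cytosolic Hsp70, was at 165.3, 172.6 and 160.0 CPM in control and 188.9, 189.2 and 203.7 CPM in nucleotide pools (0.22 ± 0.0902, edgeR adjusted p = 0.31, and 0.0374 with the block). Its paralog dnaja2l, now called dnaja2b in RefSeq, passed in neither fit (0.08 ± 0.0866, edgeR adjusted p = 0.736, and 0.43 with the block). dnajc5ga, of the cysteine string protein family, ranged more widely, at 46.2, 38.5 and 59.3 against 58.2, 45.5 and 74.3 CPM. The arms overlapped, but pool 3 was the highest and pool 2 the lowest of each arm, and within every pair the nucleotide pool was higher (0.30 ± 0.0640 with the block, edgeR adjusted p = 0.00759, against 0.555 without it). With the block and library totals none of the 5 passed, at adjusted p from 0.0711 (dnajc5ga) to 0.238 (dnaja2). dnajb1a, a J-domain partner of inducible Hsp70, fell with the block. It was at 30.4, 31.9 and 28.0 CPM in control and 23.0, 29.8 and 20.6 CPM in nucleotide pools, overlapping arms (-0.32 ± 0.0882, edgeR adjusted p = 0.0278 with the block and 0.399 without it), and it also fell with the block and library totals (0.0106). The call with the block was lost without pair 1 (adjusted p = 0.0729) and without pair 3 (0.146). Its paralog dnajb1b was at 0.03 ± 0.228 (edgeR adjusted p = 0.974).

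Other J-domain genes with small p that passed neither without nor with the block were dnajc5aa, a cysteine string protein gene, at 0.18, dnajc18 at 0.18 and dnajb6a, which in mammals guards against protein aggregates, at -0.18. dnajb6a fell with the block and library totals (-0.30, edgeR adjusted p = 0.012). Each of the 3 had arms that did not overlap, as had 15 higher genes (17.9%) and 4 lower genes (4.76%) of all 84, against 11.5% and 9.89% of all tested genes. dnajc7, a partner of both Hsp70 and Hsp90, was at 0.10 ± 0.0944 (edgeR adjusted p = 0.691).

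**Figure D3:**
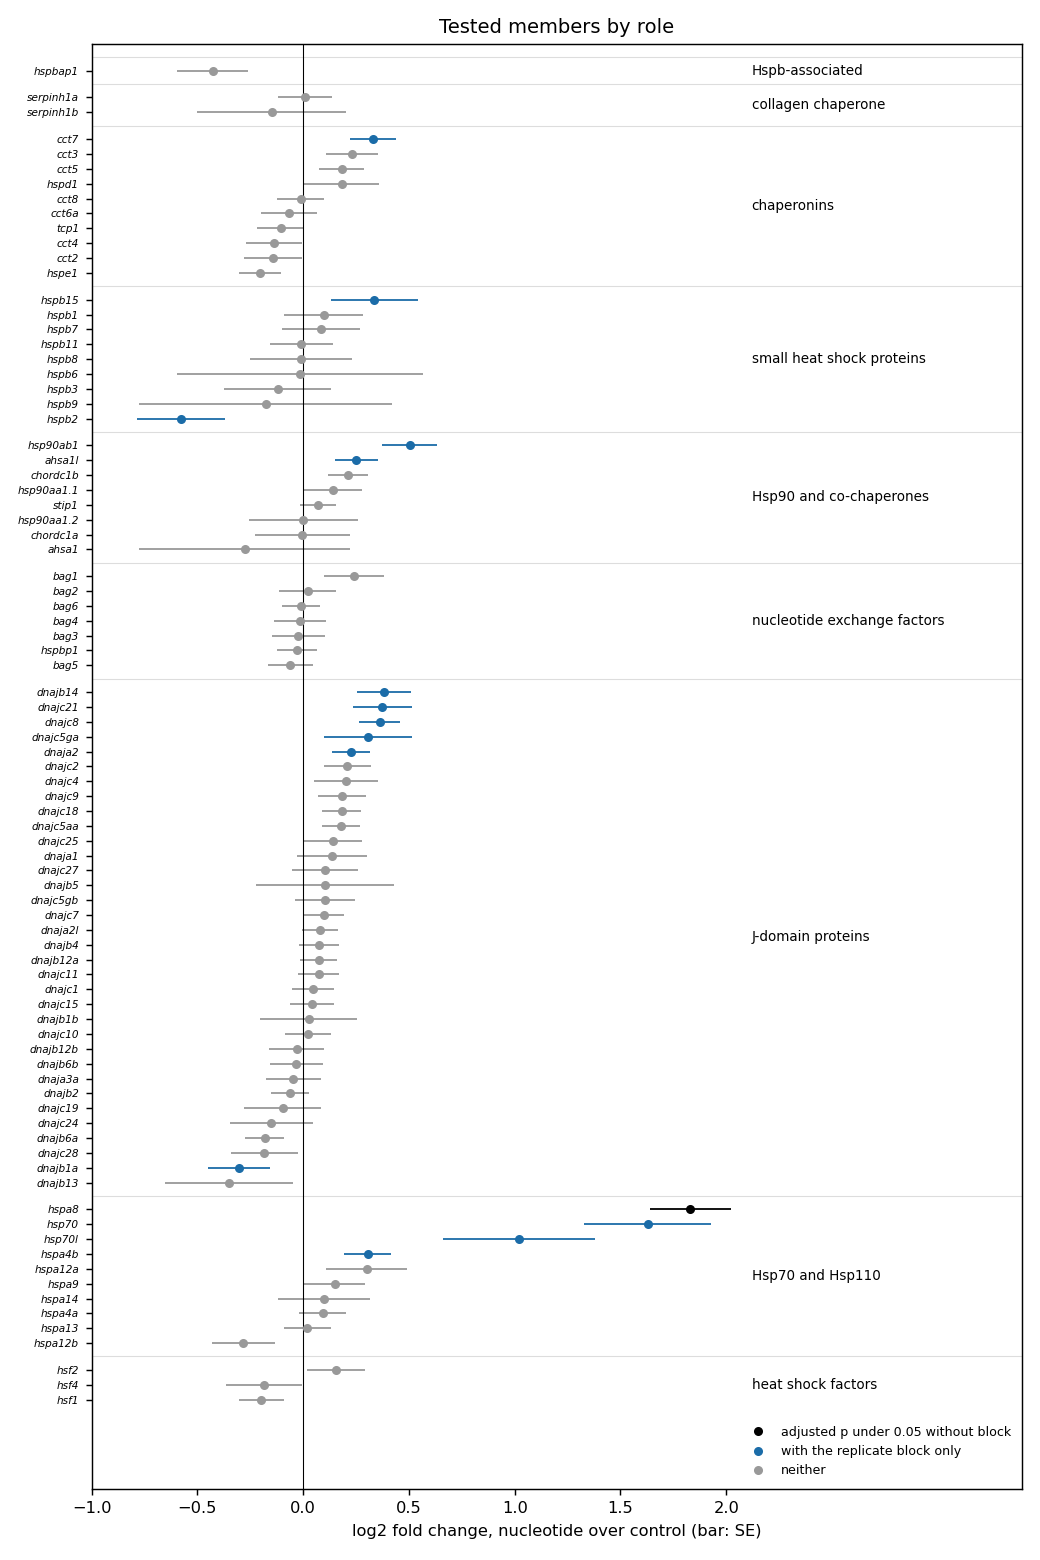
Log2 fold change of nucleotide over control (x axis, bars: SE, edgeR without the block) for the 84 tested genes, grouped by role. hspa8 (black) passed without the block, 14 genes (blue) passed with it, and hspa8, hsp70, hsp70l, hsp90ab1 and hspb2 lie more than 0.5 from 0.

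Hspbp1 and several Bag proteins are nucleotide exchange factors of Hsp70, beside the Hsp110 genes given above. The bag genes were put in this role by symbol. Of the 6 bag genes and hspbp1, 0 passed in any of edgeR without the block, edgeR with the block and DESeq2, and log2 fold changes ran from -0.06 (bag5) to 0.24 (bag1). Of all tested genes 0.937% rose and 0.0525% fell without the block, 10.7% and 8.38% with it, and 3.05% and 0.75% in DESeq2. With so few genes, 0 calls do not set them apart from all genes. bag3, which with Hspb8 directs damaged proteins to autophagy in mammals, was at 20.2, 21.3 and 18.8 CPM in control and 21.7, 20.8 and 16.9 CPM in nucleotide pools (-0.02 ± 0.125). bag6, which escorts membrane proteins in the cytosol, was at 96.7, 86.2 and 84.3 against 87.1, 92.0 and 86.3 CPM (-0.01 ± 0.0908). hspbp1 was at 20.8, 22.5 and 20.5 against 21.4, 20.2 and 20.9 CPM (-0.03 ± 0.0958).

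Small heat shock proteins, relatives of the lens alpha-crystallins, bind unfolding proteins without ATP. Of 9 such genes none passed without the block, and 1 rose and 1 fell with it (11.1% each, against 10.7% and 8.38% of all genes). hspb2, which in mammals is made in heart and muscle, was at 5.07, 4.72 and 5.31 CPM in control and 3.42, 4.15 and 2.57 CPM in nucleotide pools. Its arms did not overlap, and its counts were 119, 91 and 127 against 98, 103 and 74. The log2 fold change was -0.58 ± 0.209 (SE, edgeR adjusted p = 0.261), and -0.60 ± 0.190 with the block (adjusted p = 0.047). Skeletal muscle markers were on the whole higher in the same comparison, with a median of 0.38. The part of muscle in the value of hspb2 was not tested. hspbap1, whose product binds small heat shock proteins, was at 8.01, 7.41 and 7.81 against 6.32, 6.36 and 4.62 CPM, with no overlap (-0.43 ± 0.168, edgeR adjusted p = 0.3, 0.0567 with the block, and 0.0268 with the block and library totals).

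hspb15 was at 14.2, 11.9 and 17.9 CPM in control and 17.6, 14.9 and 23.2 CPM in nucleotide pools. The arms overlapped, with the same order of pools in each, and it rose with the block (0.33 ± 0.0912, edgeR adjusted p = 0.0254, against 0.506 without it) but not with the block and library totals (0.125). hspb1 (Hsp27), which is induced by heat in zebrafish, was at 13.2, 14 and 18.8 against 12.9, 18.4 and 17.8 CPM (0.10 ± 0.188). hspb11, now called hspb9l in RefSeq, was at 48.3, 52.6 and 42.5 against 39.8, 57.4 and 45.4 CPM (-0.01 ± 0.149, edgeR adjusted p = 0.987).

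The 8 CCT genes encode the subunits of 1 ring. cct7 was at 281.7, 320.9 and 277.4 CPM in control and 339.5, 384.4 and 383.1 CPM in nucleotide pools. Its arms did not overlap, and it rose with the block (0.33 ± 0.0701 SE, edgeR adjusted p = 0.00737, against 0.219 without it), also with library totals (0.21, adjusted p = 0.0309). cct3 and cct5, named after their values were seen, were higher in every pair too, with log2 ratios of 0.14, 0.14 and 0.41 for cct3 and of 0.02, 0.11 and 0.41 for cct5, and passed in neither fit. tcp1, cct2 and cct4 were lower in every pair, with cct4 at 548.9, 595.8 and 455.4 CPM in control and 466.7, 533.1 and 453.1 CPM in nucleotide pools (-0.14 ± 0.132, edgeR adjusted p = 0.687, and 0.213 with the block). cct6a was at 599.7, 740.0 and 592.5 against 564.6, 681.7 and 600.0 CPM (-0.07 ± 0.132, edgeR adjusted p = 0.869, and 0.565 with the block), and cct8 was at -0.01. With the block and library totals cct2, cct4, tcp1 and cct6a fell, by log2 values from -0.27 (cct2) to -0.19 (cct6a) at edgeR adjusted p from 0.0103 to 0.0378. None of them passed with the block and trimmed means. With the block and library totals 21.7% of all genes fell and 5.14% rose. On library totals without the block the median log2 fold change of all genes was -0.14. The part of that general shift in the falls was not tested. The signs of these 8 genes without the block were the same under trimmed means, DESeq2 size factors, upper quartiles and library totals. The same held for 63 of the 84 tested chaperone genes, while 21 changed sign. Differences between subunits were not tested.

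The mitochondrial chaperonin genes hspd1 (Hsp60) and hspe1 (Hsp10), whose proteins form 1 machine, are neighbours in the RefSeq annotation. hspd1 was at 106.0, 94.4 and 136.4 CPM in control and 129.4, 102.0 and 150.6 CPM in nucleotide pools, higher within each pair (0.18 ± 0.179, edgeR adjusted p = 0.697, and 0.0695 with the block). hspe1 was at 83.0, 85.9 and 98.3 against 82.6, 74.6 and 74.6 CPM, lower within each pair and without overlap (-0.21 ± 0.0996, edgeR adjusted p = 0.399, and 0.0831 with the block). Neither passed without or with the block, while hspe1 fell with the block and library totals (-0.33, edgeR adjusted p = 0.0212) and with the block without pair 1 (-0.29, adjusted p = 0.00997). The difference between the pair was not tested.

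**Figure D4:**
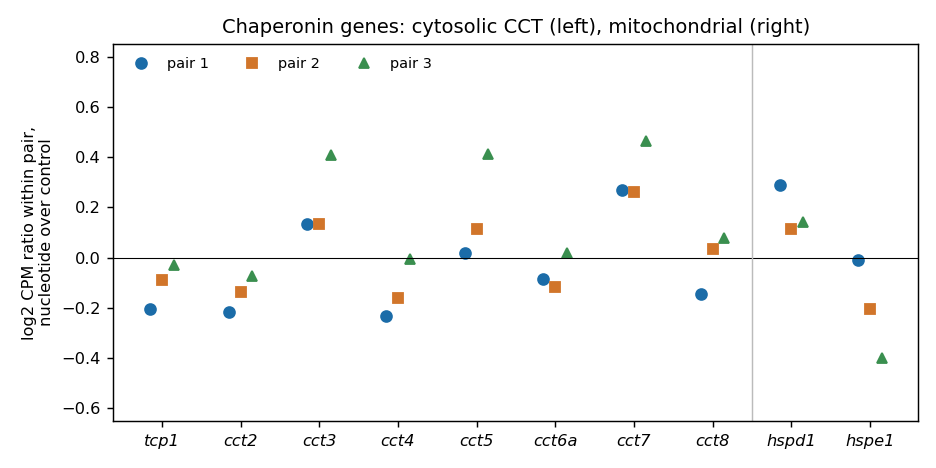
Log2 ratio of CPM within each same-numbered pair (y axis, nucleotide over control) for the 8 CCT genes and, right of the line, hspd1 and hspe1. cct7 lies between 0.26 and 0.47 in the 3 pairs, cct2 between -0.21 and -0.08, and hspe1 between -0.40 and -0.01.

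serpinh1b encodes Hsp47, the collagen chaperone. It was at 99.5, 88.9 and 60.0 CPM in control and 81.9, 105.4 and 36.8 CPM in nucleotide pools, overlapping arms with pool 3 the lowest of each (-0.15 ± 0.352, edgeR adjusted p = 0.887). It passed with the block only when pair 2 was left out (-0.49, adjusted p = 2.47e-05). Its paralog serpinh1a was at 19.9, 24.3 and 24.7 against 20.6, 25.0 and 23.6 CPM (0.01 ± 0.127, edgeR adjusted p = 0.984).

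Several genes differed more between pools of an arm than between the arms, and did so by pool number. Those shown were picked after their values were seen. hspb9 was at 23.7, 73.3 and 31.3 CPM in control and 13.6, 70.5 and 29.3 CPM in nucleotide pools, a 3.10-fold and a 5.17-fold range within the arms with pool 2 the highest of both. It fell with the block and library totals (-0.41, edgeR adjusted p = 0.0316) but not with the block and trimmed means (0.113). hspb6 was at 5.58, 5.86 and 19.4 against 6.46, 6.08 and 18.0 CPM, with pool 3 standing far above the others in both arms. hspb8 was highest in pool 2 of both arms, at 29.9 and 30.5 CPM against 18.8 to 19.5 CPM in the other pools. dnajb1b was lowest in pool 3 of both arms, at 22.6 and 24.5 CPM against 34.3 to 39.2 CPM. The co-chaperone gene fkbp5, whose transcription glucocorticoids raise in vertebrates, was at 54.0, 198.8 and 520.4 CPM in control and 106.5, 181.2 and 598.5 CPM in nucleotide pools, with pool 3 the highest of both arms. In 46 of the 84 genes (54.8%) the highest pool had the same number in both arms, against 59.4% of all tested genes, a share below that background.

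**Figure D5:**
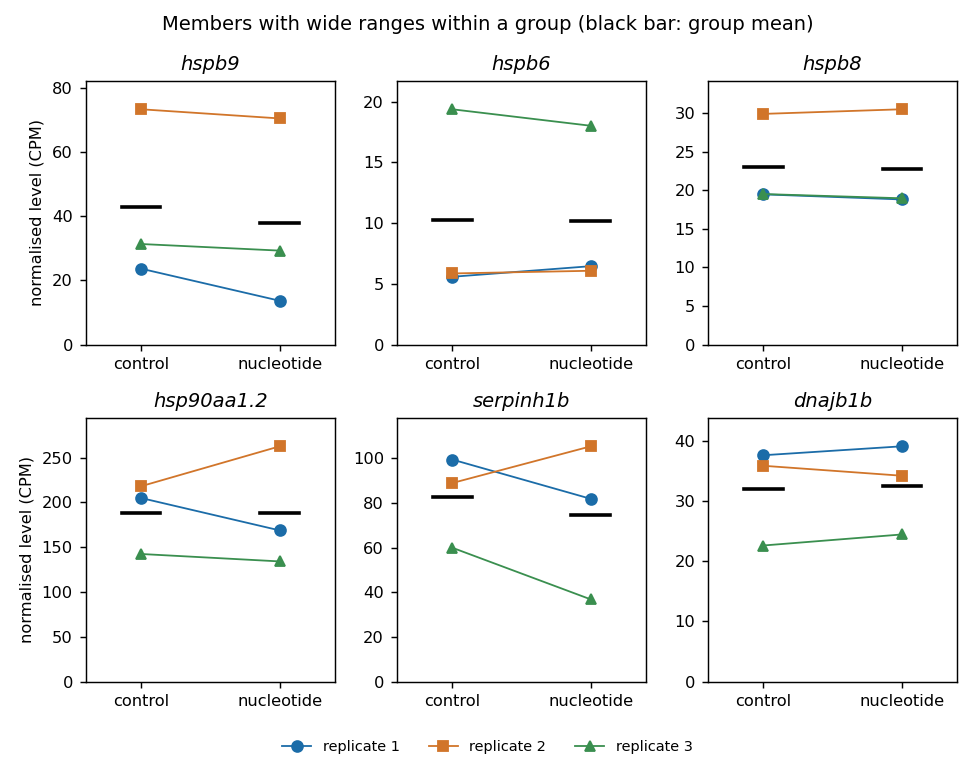
Normalised level (CPM, y axis from 0) of hspb9, hspb6, hspb8, hsp90aa1.2, serpinh1b and dnajb1b in control and nucleotide pools, with lines joining pools of the same number and black bars at the group means (3 pools each). In 5 of the 6 genes, all but serpinh1b, the highest pool has the same number in both arms, as for hspb6, where pool 3 is at 19.4 and 18.0 CPM.

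Partners of the chaperones outside the symbol rule were read from a list of 80 genes. Among them were other Hsp90 and Hsp70 co-chaperones, prefoldin, tubulin-folding cofactors, the nascent chain complex and mitochondrial proteases. The list also holds vcp and the alpha-crystallin genes cryaa, cryaba and cryabb. Of the crystallins, cryaa rose with the block (0.38 ± 0.118 SE, edgeR adjusted p = 0.0437, against 0.473 without it), cryabb passed in neither fit and cryaba was not tested. Of the 80 genes on the list, 62 were matched and 60 tested. None passed without the block, 16 were higher and 2 lower at an unadjusted p under 0.05 (26.7% and 3.33%, against 8.3% and 6.19% of all genes), and DESeq2 called 5 higher and 1 lower (8.33% and 1.67%, against 3.05% and 0.75%). With the block 17 rose (28.3%, against 10.7% of all genes) and 4 fell (6.67% against 8.38%). With the block and library totals 13 of the 60 rose and 9 fell. Of all 13336 genes, 686 rose (5.14%) and 2889 fell (21.7%) in that fit. The median was 0.11 on the log2 scale, against -0.01 over all genes.

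The nascent polypeptide-associated complex meets new chains at the ribosome, and its subunit genes btf3 and naca rose with the block. The btf3-like gene btf3l4, with means of 1.79 and 2.39 CPM, passed in neither fit (0.42 ± 0.210, edgeR adjusted p = 0.416, and 0.211 with the block). btf3 was at 797.4, 876.4 and 715.2 CPM in control and 1158, 1312 and 1221 CPM in nucleotide pools, with no overlap (0.63 ± 0.119, edgeR adjusted p = 0.0607, and 0.000227 with the block). naca was at 1402, 1568 and 1236 against 1976, 2185 and 1957 CPM (0.54 ± 0.126, edgeR adjusted p = 0.111, and 0.000679 with the block). vbp1, a prefoldin subunit that passes actin and tubulin chains to CCT, was at 44.0, 53.5 and 47.4 against 59.0, 66.2 and 69.3 CPM (0.43 ± 0.108, edgeR adjusted p = 0.135, and 0.00168 with the block).

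nudc, a co-chaperone of Hsp90 and dynein regulator, was at 15.8, 15.7 and 16.3 CPM in control and 19.8, 21.9 and 25.1 CPM in nucleotide pools (0.48 ± 0.118, edgeR adjusted p = 0.122, and 0.00505 with the block). hsbp1b, whose human counterpart binds and restrains heat shock factor 1, was at 44.0, 47.6 and 49.2 against 59.4, 63.1 and 60.6 CPM (0.38 ± 0.0864, edgeR adjusted p = 0.101, and 0.00241 with the block), and its paralog hsbp1a, named after its value was seen, was at 0.51 ± 0.146 (0.177, and 0.00132 with the block). stub1, the ubiquitin ligase CHIP that marks chaperone clients for the proteasome, was at 72.8, 71.4 and 68.1 against 53.0, 54.8 and 47.9 CPM. It fell with the block (-0.45, edgeR adjusted p = 0.000729) and in DESeq2 (0.00404), and did not pass without the block (0.0696). In DESeq2 btf3 (adjusted p = 2.4e-05), naca (0.00139), hsbp1b (0.02), nudc (0.0364) and vbp1 (0.0391) passed as well, and hsbp1a did not (0.0592). In each of these 7 genes the arms did not overlap, against 11.5% (higher) and 9.89% (lower) of all tested genes. The 7 were named for a small p or after their values were seen, so their count is no separate evidence.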

How the data were processed

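The authors deposited raw counts per gene for 6 libraries of whole zebrafish embryos, in 1 table of 14681 rows. The submitters' processing notes list TopHat2, HTSeq, DESeq2 and GRCz10; annotation, strand setting and the handling of multiply matching reads are not stated. Per the file headers the table also holds the authors' mean normalized count (a signal), log2 fold change, Wald score and p-values. Columns were assigned by library name. Dropping 69 rows that repeat another row's symbol and counts left 14612 genes.

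Counts were tested with edgeR 4.0.16 in R 4.3.3 (filterByExpr, minimum count 10 and minimum total 15, 13336 genes kept; trimmed mean of M values, TMM; quasi-likelihood F test on the group term; Benjamini-Hochberg adjustment; threshold 0.05). The SE of a log2 fold change is its size divided by the square root of F. CPM are counts over the TMM-scaled total, brought to a common total. DESeq2 1.42.0, other scalings, no filter, the replicate block and single libraries left out were alternatives. The steps were also run on simulated counts, where the outcome required was the recovery of set fold changes. That run does not show whether the calls made here are right. The labels number the pools without saying whether they came from separate clutches, so the spread that p-values measure may be technical.

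The arms share the numbers 1 to 3, whose meaning the labels do not give. Deviations from the group means correlated at 0.573, 0.659 and 0.651 in same-numbered pairs and between -0.437 and -0.226 in the 6 others. The deviations of an arm sum to 0 for each gene, so positive values in same-numbered pairs bring negative ones elsewhere. The negative values are therefore no separate evidence of pairing. Since each same-numbered correlation passed 0.1, the numbers were treated as pairs, on the counts and not the labels. The block was thus chosen from the same counts that were then tested with it.

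The genes and lists were chosen with earlier results of these data known. Named genes are those called without the block, or with it and changed at least 1.5-fold; the 20 with the smallest p; hspa8, hsp70 and hsp70l; the 2 with the highest mean CPM per role; every heat shock factor; and the 6 partners with the smallest p. Further genes are named as examples after their values were seen, whether or not the text repeats it. RefSeq names (GRCz12tu) matched 85 of the 87 genes. Promoter and protein sequences were not used here.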

Additional observations from a re-analysis of the deposited data

How the results depend on the processing

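Counts of calls depended on the replicate block, on the test and, with the block, on the scaling. Without the block, 1 chaperone gene rose under DESeq2 size factors, upper quartiles, library totals and no filter, as under TMM, and 0 fell in any of these. DESeq2 called 3 higher, and with the replicate block 13 rose and 2 fell. Alternatives added after seeing the data gave 5 and 12 with the block and library totals, and 13 and 2 with the block and DESeq2 size factors. Over all genes 125 rose and 7 fell, against 399 and 98 in DESeq2, 1432 and 1118 with the block, 686 and 2889 with the block and library totals, and 1457 and 1102 with the block and DESeq2 size factors. With library totals 86 rose and 18 fell, and with upper quartiles 11 fell. Library totals moved the median of all genes from -0.01 to -0.14. Of the partner genes none passed without the block, 5 rose and 1 fell in DESeq2, 17 and 4 with the block, 13 and 9 with the block and library totals, and 18 and 4 with the block and DESeq2 size factors. With single libraries left out, where fewer samples enter, 1 to 2 chaperone genes rose and 0 fell, no partner passed, and over all genes 39 to 79 rose and 0 to 2 fell; 39 was without control pool 1. The median over the 84 genes (0.0589) was 0.0328 with upper quartiles, -0.0674 with library totals, -0.0789 with the block and library totals, and 0.0341 to 0.0958 with single libraries left out.

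With the block and 1 pair left out, 16, 11 and 7 chaperone genes rose without pair 1, 2 or 3, and 2, 5 and 1 fell. Of all genes, the same fits called 1265, 1150 and 1010 higher and 870, 862 and 661 lower. The 6 chaperone genes that rose in each fit were hspa8, hsp70, hsp70l, hsp90ab1, cct7 and dnajc5ga. The calls of dnajc8, hspa4b, dnajb14, hspb15, dnajb1a, ahsa1l, dnaja2, dnajc21 and hspb2 were lost without at least 1 pair.

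Without the block, 21 of the 84 tested genes changed sign across the 4 scalings. With library totals stip1 was at -0.0556, hspa4a at -0.0354, hspb1 at -0.0323 and dnajb1b at -0.0913. The rest of this paragraph covers only genes named by the rule above. Among those, sign changes were seen in genes that passed neither without nor with the block over all pairs. Of these cct6a and hspb9 fell with the block and library totals, and hspb9 and serpinh1b with the block without pair 2. dnajc7 (0.10) was at -0.0290 with library totals, with and without the block. hsp90aa1.2 (0.00) was at -0.0228 with upper quartiles, -0.119 with library totals, -0.0321 with the block, -0.157 and -0.0301 with the block and library totals or DESeq2 size factors, -0.183 and -0.00546 with the block without pair 2 or 3, and -0.315 to 0.201 with single libraries left out. serpinh1a (0.01) was at -0.0177 with upper quartiles, -0.117 and -0.116 with library totals without and with the block, -0.00255 and -0.00715 with the block without pair 1 or 2, and -0.0857 to 0.0898 with single libraries left out. With the block and a pair left out bag6 was at 0.0733, hspb11 at 0.119 (both without pair 1) and hspbp1 at 0.0356 (without pair 2). With single libraries left out bag6 ranged from -0.0479 to 0.0540, cct6a from -0.145 to 0.0460, hspb11 from -0.165 to 0.111, hspb9 from -0.991 to 0.456, hspbp1 from -0.0551 to 0.0151 and serpinh1b from -0.481 to 0.183. The cause of these changes was not tested. Counts were low for some genes, such as at most 127 in a library for hspb2 and 108 for hsf4; the part of depth in their calls was not tested.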
